A study of Mus musculus with 8 samples.

Results

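The DNA replication machinery was followed here through 52 named genes, chosen by symbol from the 21524 genes of a table of regulatory T cell (Treg) transcriptomes. All 52 symbols were in the table. Tregs, the CD4 T cells that hold immune responses in check, were flow-sorted from mouse spleen for total RNA sequencing. The labels put 4 libraries in an IL-2 treatment group (libraries 41 to 44) and 4 in a control group (libraries 45 to 48). The series as a whole concerns an IL-2 mutein given with CTLA-4 Ig to C57BL/6 recipients of BALB/c hearts or kidneys, but the labels of these 8 libraries do not state which IL-2 was given, its dose or timing, what the controls received, whether CTLA-4 Ig or a graft was present, or the strain, genotype and age of the animals. Nor do they state that each library came from a separate animal, so the spread behind each p-value is that between libraries and may be technical.

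Before a cell divides, each replication origin is bound by the origin recognition complex (ORC), and Cdc6 and Cdt1 then load the ring of Mcm2 to Mcm7, a step called licensing. At the start of S phase the Cdc7 and Dbf4 kinase, with Cdc45 and the GINS complex, turns the loaded ring into the active helicase. Primase and the polymerases alpha, delta and epsilon then copy the strands behind it, held in place by the PCNA clamp that replication factor C loads. Resting lymphocytes keep many of these genes low through RB family proteins bound to E2F factors, and cytokines such as IL-2 are known to drive T cells into S phase.

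Depth was 4953546 to 6399417 reads per library, as estimated from the deposited values, with no separation between the groups. The values were variance-stabilised on a log2 scale, and normalised read counts were recovered from them. All folds below are ratios of group means of those counts, and differences and their standard errors (SE) are IL-2 minus control on the deposited scale. That scale is compressed: a doubling from 50 reads spans 0.20 units, one from 200 reads 0.38 and one from 1000 reads 0.68. The sorted cells held the Treg transcripts Foxp3, Il2ra, Ikzf2, Ctla4, Cd3e, Cd4 and Lrrc32. Their summed reads were 40120 to 46695 in the IL-2 libraries and 30475 to 31460 in controls, but the genes did not move together. Il2ra and Lrrc32 were 2.61-fold and 2.66-fold higher with IL-2. Cd4 was lower, at 2523 ± 354 reads against 4136 ± 299.6 in controls (mean ± SD, n = 4 each). For Foxp3, Ikzf2, Ctla4 and Cd3e the groups overlapped. The Y-linked transcript Ddx3y was listed at 0 in IL-2 libraries 41 and 42 and control library 45. It was present in IL-2 libraries 43 and 44 and control libraries 46, 47 and 48, at 215.5 to 460.5 reads. As listed, each group thus held libraries with and without this transcript, in unequal shares. The sex of the animals was not examined further. IL-2 library 44 stood apart in mitosis genes, as described further on.

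Most of the replication genes were higher with IL-2. Of the 52 members, 30 rose and 0 fell at an adjusted p of 0.05 (limma with Benjamini-Hochberg adjustment over all 10822 genes tested), and 22 did not pass. Over all genes tested, 11.0% were called higher and 9.31% lower. The median fold of the members was 1.83, against 0.992 over all genes tested, and 50 of the 52 had a ratio above 1, as did 48.8% of tested genes. In 32 members the 4 IL-2 libraries lay wholly above the 4 controls, an arrangement found in 12.9% of tested genes, and in 0 members did they lie wholly below, which held for 10.9% of tested genes. Of the members called higher, 18 reached at least a 2-fold rise, a combination seen in 4.11% of tested genes. In bulk RNA a larger share of cycling cells and more transcript per cell cannot be told apart.

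The shares called depended on read number in both sets. Among genes with a mean of at least 300 reads, 13 of 15 members rose, against 16.4% of 4050 tested genes. Between 100 and 300 reads, 9 of 21 members rose, against 9.19% of 3145 genes, and under 100 reads 8 of 16 against 6.51% of 3627. All 52 members had a mean of at least 10 reads over the 8 libraries, the filter used, which does not look at the groups.

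**Figure D1:**
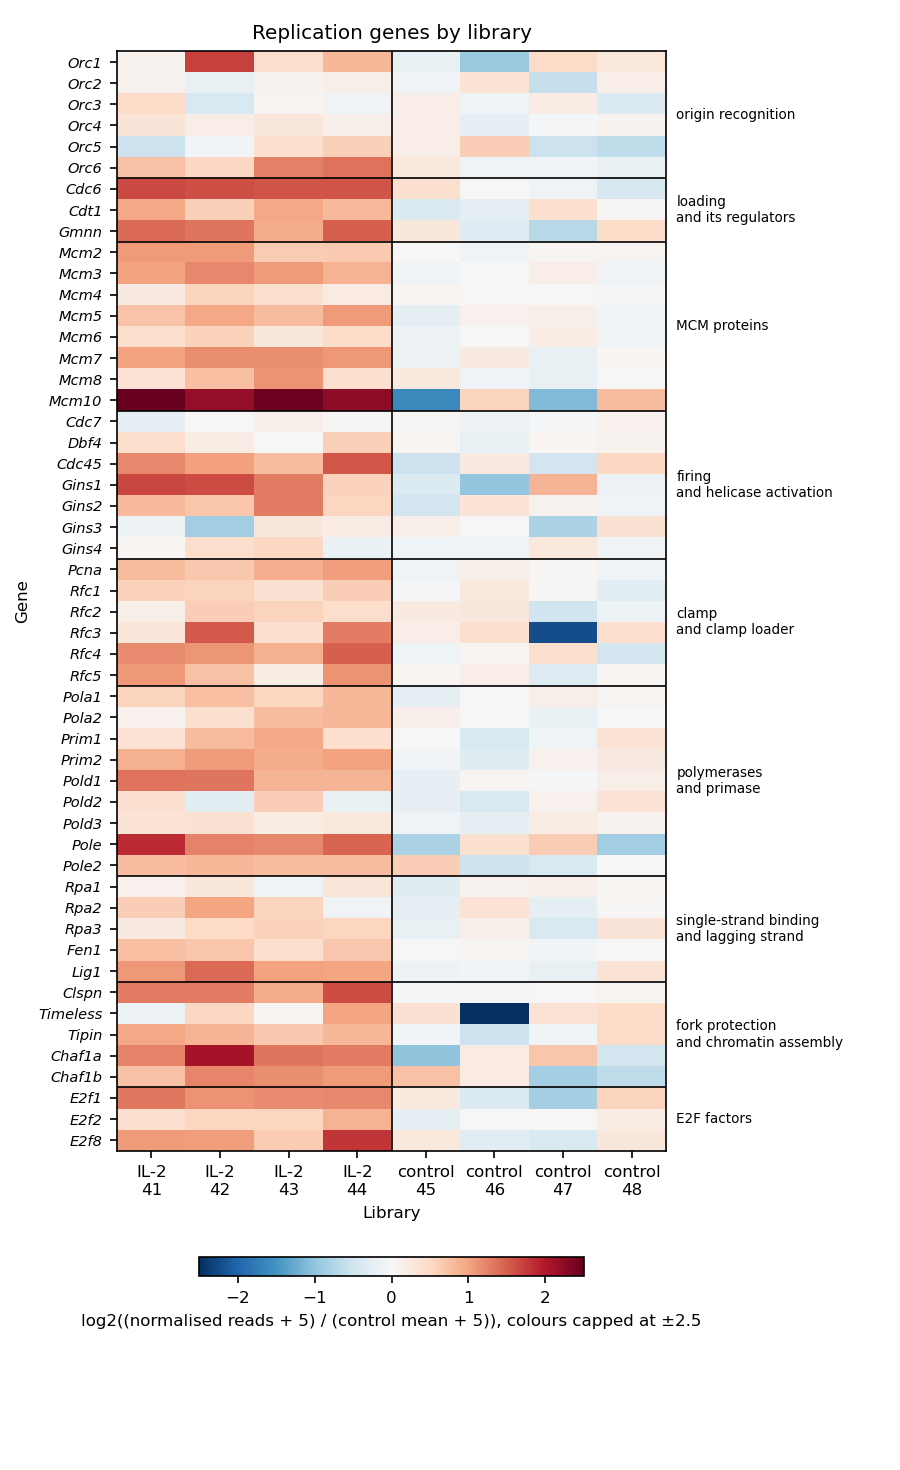
Each row is 1 of the 52 replication genes, ordered by role, and each column 1 library. Colour gives log2 of normalised reads plus 5 over the control mean plus 5, capped at 2.5 in either direction. Red fills most of the 4 IL-2 columns, but rows such as Orc2, Orc3, Orc5, Cdc7 and Gins3 are pale or mixed there. The darkest blue cells are Timeless in control library 46 (0 reads) and Rfc3 in control library 47 (2.1 reads).

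Licensing was examined from its first step. Among the 6 ORC genes, whose products mark origins, 1 of 6 rose (16.7%), against 11.0% of all tested genes. The median fold was 1.15. Orc6, the smallest ORC subunit, had 82.8, 70.5, 121 and 129.6 normalised reads in IL-2 libraries 41 to 44 and 58.4, 44.6, 45.3 and 42.2 in control libraries 45 to 48. The groups did not overlap, and Orc6 rose 2.12-fold (difference 0.21 ± 0.06 SE, limma adjusted p = 0.0219). That call was lost when any of libraries 43, 44, 46, 47 or 48 was left out, with an adjusted p of at most 0.061. Orc4, part of the ATPase core of the complex, had 505, 449.8, 488 and 439.9 reads with IL-2 and 449.6, 337, 393 and 424 in controls, with overlapping groups (1.17-fold, limma adjusted p = 0.197). Orc1, the subunit known to vary through the cell cycle, stood at 16.2, 60.7, 22 and 30.5 and 12.7, 5.51, 23 and 18.9 reads. Its ratio was 2.15 at few reads, with 1 IL-2 library well above the rest, and it did not pass (limma adjusted p = 0.233). Orc5 stood at 82.9, 115, 165 and 185 and 137, 189, 82.6 and 76.7 reads (1.13-fold, adjusted p = 0.736, limma).

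Orc3 had the largest p of the complex, with 315, 172, 236 and 211 reads under IL-2 and 253, 212, 257 and 177 in controls (limma adjusted p = 0.918). The remaining subunit gene, Orc2, had a ratio of 1.03, and its 95% interval on the deposited scale ran from -0.12 to 0.17. At its 217 control reads a doubling spans more than the upper end of that interval, since it spans 0.38 from 200 reads. Ratios of the 6 ORC genes thus ran from 1.03 to 1.17 apart from Orc1 and Orc6, at 2.15 and 2.12.

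The loading factors and their inhibitor moved together: 3 of 3 rose, against 11.0% of all tested genes. Cdc6, the ATPase that brings the MCM ring to ORC, had 144, 140.0, 135 and 136 reads in the IL-2 libraries and 57, 41.9, 39.2 and 30.5 in controls. The 4 IL-2 values were nearly alike and far above every control, a 3.29-fold rise (difference 0.37 ± 0.05 SE, limma adjusted p = 2.83e-04). Cdt1, which works with Cdc6 in loading, had 231, 179, 234 and 209 reads against 89.8, 99.3, 158 and 119. The lowest IL-2 library and the highest control, library 47, were close, and the rise was 1.83-fold (limma adjusted p = 0.00787). Gmnn encodes geminin, which binds Cdt1 and blocks reloading after S phase has begun. Its reads were 141, 135, 99.2 and 151 with IL-2 and 61.7, 39.1, 29.1 and 70.4 in controls, 2.63-fold higher with no overlap (limma adjusted p = 0.00382).

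Of the 8 MCM genes 7 rose (87.5%, against 11.0% of all tested genes). In all 8 the IL-2 libraries lay above every control, as they did in 12.9% of tested genes. Mcm2 to Mcm7 encode the 6 subunits of the helicase ring, and 6 of 6 rose, by 1.28-fold (Mcm4) to 2.17-fold (Mcm7). Mcm3 had 1115, 1271, 1154 and 1002 reads with IL-2 and 516, 543, 619 and 519 in controls (difference 0.60 ± 0.06 SE, limma adjusted p = 2.92e-05), and even the lowest IL-2 library was well above the highest control. Mcm7 had 688, 768, 769.9 and 731 reads against 314, 399, 300.5 and 351 (difference 0.54 ± 0.05 SE, limma adjusted p = 3.07e-05). Mcm5 had 586, 698, 621 and 757 against 304, 385, 398 and 341, 1.87-fold higher (limma adjusted p = 3.66e-04). Here library 44 was the highest, whereas it was the lowest IL-2 library for Mcm3.

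The other ring subunits rose by less or with more spread. Mcm2 had 949, 948, 707 and 714 reads with IL-2, in which libraries 41 and 42 were above 43 and 44, and 449, 420.3, 466 and 472 in controls (1.84-fold, limma adjusted p = 5.52e-04). Mcm6 stood at 1561, 1719, 1406 and 1591 against 1065, 1162, 1313 and 1089 (1.36-fold, limma adjusted p = 0.00483). Mcm4 had the smallest rise, from 769, 749, 741 and 715 reads to 864, 1094, 988 and 854 (limma adjusted p = 0.0263), and lost its call when any of libraries 42, 43, 46, 47 or 48 was left out (adjusted p at most 0.0685). Its 95% interval on the deposited scale, 0.08 to 0.33, did not meet those of Mcm3 (0.47 to 0.72) and Mcm7 (0.42 to 0.66). The difference between subunits was not tested.

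Mcm10 and Mcm8 do not encode subunits of this ring and have other tasks. Mcm10, which helps to activate the helicase, had the highest fold of all 52 members. Its reads were 184, 134, 161 and 137 with IL-2 and 4.87, 39.8, 9.07 and 47.6 in controls, where libraries 45 and 47 held under 10 reads, giving a 6.07-fold rise with a wide margin between the groups (difference 0.54 ± 0.08 SE, limma adjusted p = 4.19e-04). Mcm8, which acts with Mcm9 in recombination repair, had 43.7, 59, 77.8 and 45.1 against 40.0, 30.4, 28.3 and 32.4 reads. These values did not overlap, but Mcm8 did not pass (limma adjusted p = 0.134, 95% interval 0.01 to 0.24 before adjustment).

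**Figure D2:**
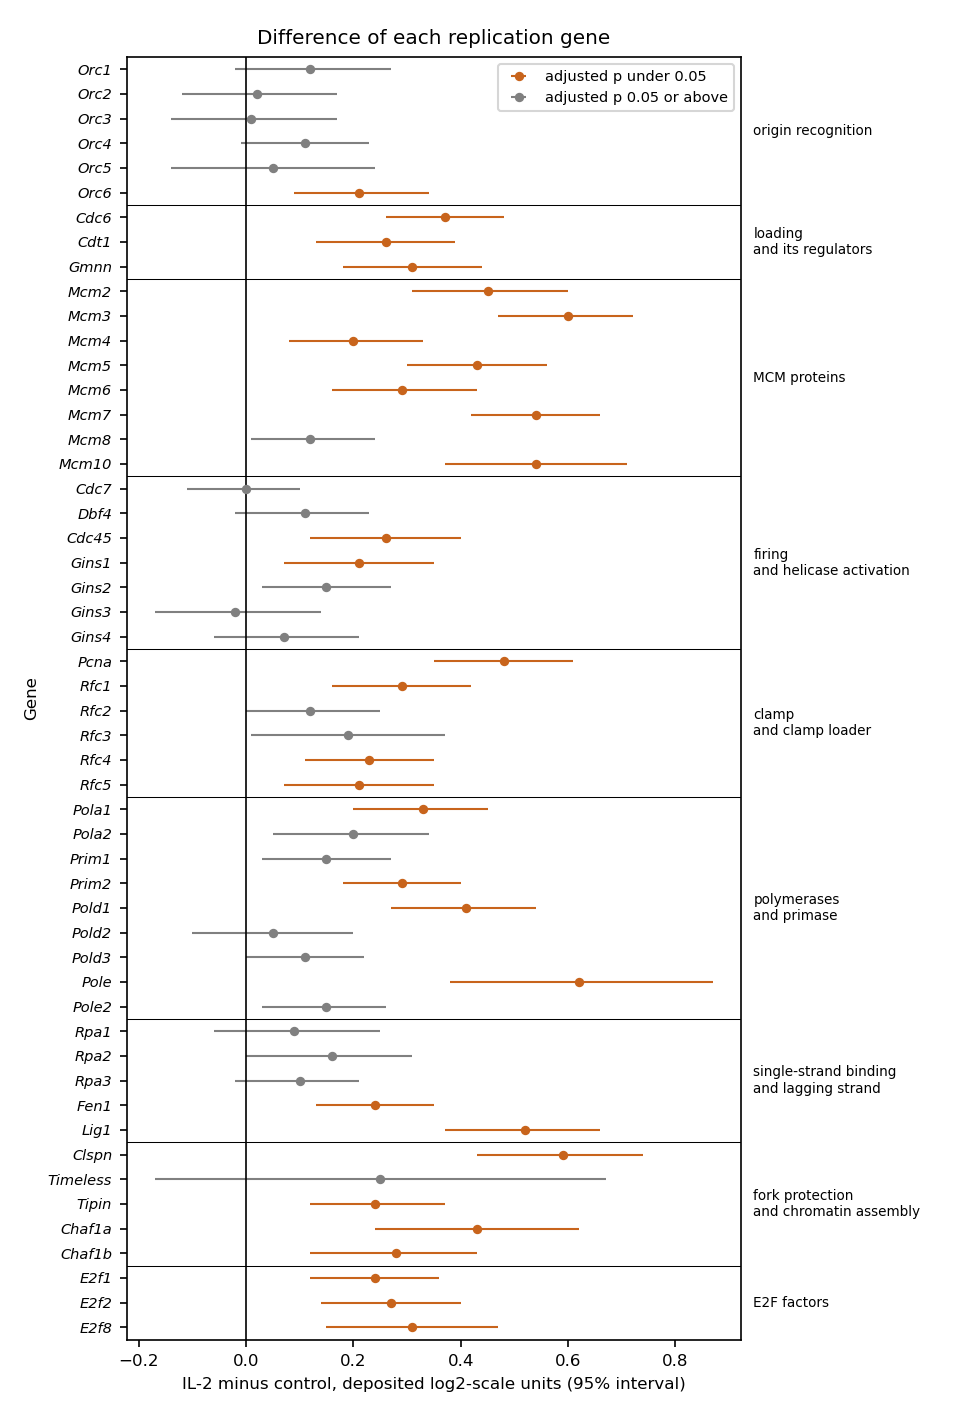
Points give the difference of each replication gene, IL-2 minus control, on the deposited log2 scale, with the 95% interval of the limma fit. Orange genes passed an adjusted p of 0.05 and grey genes did not. The MCM rows run from 0.12 for Mcm8 to 0.60 for Mcm3, while the intervals of 5 of the 6 ORC genes include 0.

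The promoters of the members were also searched for sequence letters, which the choice of members did not use. TTTGGCGC and TTTCGCGC are common forms of the site that E2F factors bind, and these letters were searched on both strands in windows from 250 bases before to 50 after the gene start (RefSeq, build GRCm38.p6). Matches can overlap each other where sites lie back to back, and each is counted. Windows were matched by symbol for 43 of the 52 members. Of these, 13 (30.2%) held the letters in at least 1 window, against 1.93% of 8505 tested genes and 0.929% of all 27025 genes in the table. Median GC content was 62.3% in the members' windows and 60.7% in those of tested genes. For the MCM genes the count was 5 of 7, namely Mcm3, Mcm5, Mcm6, Mcm7 and Mcm8. Among members that rose it was 9 of 24, and among those that did not pass 4 of 19. The CCAAT letters of the factor NF-Y stood in 60.5% of members and 43.6% of tested genes. A match describes these letters only, and binding was not measured.

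The sites of the MCM genes are shown because nearly all of this family rose and most of its matched promoters held the letters. Each is printed as 30 bases on the gene's strand, 5′ to 3′, with the matched letters in capitals.
Mcm3, chr1:20820263-20820292, minus strand: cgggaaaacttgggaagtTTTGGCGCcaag
Mcm5, chr8:75109345-75109374, plus strand: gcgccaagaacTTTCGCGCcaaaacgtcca
Mcm6, chr1:128359734-128359763, minus strand: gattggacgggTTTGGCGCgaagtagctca
Mcm7, chr5:138171849-138171878, minus strand: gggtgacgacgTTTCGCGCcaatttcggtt
Mcm8, chr2:132816161-132816190, plus strand: gcagaagcgcgtcatagacGCGCCAAAaaa
The Mcm3, Mcm7 and Mcm8 matches begin at positions 39, 17 and 40, counting the start of the gene as 1. That of Mcm5 begins 153 bases before the start and that of Mcm6 47 bases before it.

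In Mcm5 and Mcm6 the letters also occur back to back on opposite strands, which the 250 bases before the start show, with every matched base in capitals.
Mcm5, chr8:75109259-75109508, plus strand: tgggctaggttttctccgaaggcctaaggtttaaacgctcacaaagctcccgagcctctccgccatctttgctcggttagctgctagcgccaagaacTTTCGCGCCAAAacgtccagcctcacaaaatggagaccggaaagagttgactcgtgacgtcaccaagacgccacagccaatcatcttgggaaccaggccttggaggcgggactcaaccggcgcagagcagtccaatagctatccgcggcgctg
Mcm6, chr1:128359706-128359955, minus strand: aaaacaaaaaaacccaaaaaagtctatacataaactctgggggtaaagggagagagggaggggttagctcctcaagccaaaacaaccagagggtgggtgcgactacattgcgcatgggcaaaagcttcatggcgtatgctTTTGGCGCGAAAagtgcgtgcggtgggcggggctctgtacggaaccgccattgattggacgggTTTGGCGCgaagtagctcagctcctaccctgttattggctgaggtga
The joined run in Mcm6 begins 110 bases before the start, and the other run is the site printed above. Mcm6, with 3 matches, rose 1.36-fold, and Mcm3, with 1, rose 2.07-fold. Mcm2 and Mcm10 held no such letters in their windows, and Mcm4 was not matched.

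Sites outside the MCM family are shown for members of other roles, to compare genes that rose with genes that did not pass.
Cdt1 (rose), chr8:122568035-122568064, plus strand: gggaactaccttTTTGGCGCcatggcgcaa
Lig1 (rose), chr7:13278841-13278870, plus strand: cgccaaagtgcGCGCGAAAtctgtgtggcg
Clspn (rose), chr4:126556990-126557019, plus strand: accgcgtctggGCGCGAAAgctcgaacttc
E2f2 (rose), chr4:136172294-136172323, plus strand: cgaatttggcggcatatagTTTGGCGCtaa
Pola1 (rose), chrX:93632275-93632304, minus strand: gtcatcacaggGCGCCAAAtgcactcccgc
Orc1 (did not pass), chr4:108579416-108579445, plus strand: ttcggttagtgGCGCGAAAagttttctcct
Rfc3 (did not pass), chr5:151651200-151651229, minus strand: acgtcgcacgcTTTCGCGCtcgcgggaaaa
Pole2 (did not pass), chr12:69228162-69228191, minus strand: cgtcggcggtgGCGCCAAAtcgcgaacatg
The last 3 genes had mean reads under 100 in both groups, and their ratios were 2.15, 2.15 and 1.84.

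Of the 7 genes of origin firing, 2 rose (28.6%, against 11.0% of all tested genes), and the median fold was 1.25. Cdc45, which joins the MCM ring to form the active helicase, had 117, 103, 84.9 and 151 reads with IL-2 and 31.5, 56.5, 33.2 and 70.7 in controls, 2.37-fold higher without overlap (limma adjusted p = 0.0123). Gins1, a subunit of the GINS complex, had 55.6, 53.6, 41.5 and 23.3 against 9.96, 4.63, 29.4 and 12.1 reads. The lowest IL-2 library, 44, lay below the highest control, 47, and the 3.1-fold rise passed narrowly (limma adjusted p = 0.0387). It no longer passed under 8 of 17 alternatives, with an adjusted p of at most 0.105. Gins2 had 55.1, 50.5, 78.8 and 44.8 against 20.0, 38.5, 31.4 and 26.8 reads, which did not overlap, and did not pass (limma adjusted p = 0.0701).

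The other GINS subunits and the firing kinase did not pass. Dbf4, the activating subunit of the kinase, had 258, 215, 186 and 286 reads with IL-2 and 195, 164, 194 and 200.3 in controls (1.25-fold, limma adjusted p = 0.23). Cdc7, its catalytic subunit, stood at 98.5, 117, 129 and 119.9 and 120.3, 107, 115 and 126 reads, with groups that overlapped fully. It had the largest p of all members (limma adjusted p = 0.973), and its 95% interval, -0.11 to 0.10, lies below the 0.28 units that a doubling from 100 reads spans. Gins3 and Gins4 had ratios of 0.949 and 1.19 (limma adjusted p = 0.908 and 0.458).

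Clamp loading was read from Pcna and the 5 genes of replication factor C. Of these, 4 of 6 rose (66.7%, against 11.0% of all tested genes), with a median fold of 1.82. Pcna encodes the ring that tethers polymerases to DNA, and its reads were 934, 858, 1014 and 1121 with IL-2 and 504, 591, 553 and 507 in controls (difference 0.48 ± 0.06 SE, limma adjusted p = 1.69e-04). Each IL-2 library was well above each control. Rfc1, the large subunit of the loader, had 807, 800.2, 713 and 836 reads against 533, 641, 552 and 445, 1.45-fold higher (limma adjusted p = 0.00522). Rfc4, a small subunit, had 83.2, 78.4, 66.9 and 104 against 30.8, 35.1, 46.1 and 23.2, 2.46-fold higher and without overlap (limma adjusted p = 0.00939).

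The remaining subunits of the loader were less clear. Rfc5 had 183, 143, 96 and 189 reads with IL-2 and 87.5, 95.3, 66.5 and 86.4 in controls, and IL-2 library 43 lay barely above the highest control. Its 1.82-fold rise passed (limma adjusted p = 0.0354), but not under 9 of 18 alternatives (adjusted p at most 0.0956). Rfc2 stood at 105, 149, 143 and 130.3 and 111, 117, 65.8 and 86 reads and overlapped (1.39-fold, limma adjusted p = 0.169). Rfc3 had 35.4, 89.4, 39.2 and 75 against 31.7, 38.8, 2.1 and 38.7, with control library 47 far below the other controls (limma adjusted p = 0.143). The small subunits, Rfc2 to Rfc5, thus had ratios from 1.39 to 2.46, of which those of Rfc4 and Rfc5 passed.

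**Figure D3:**
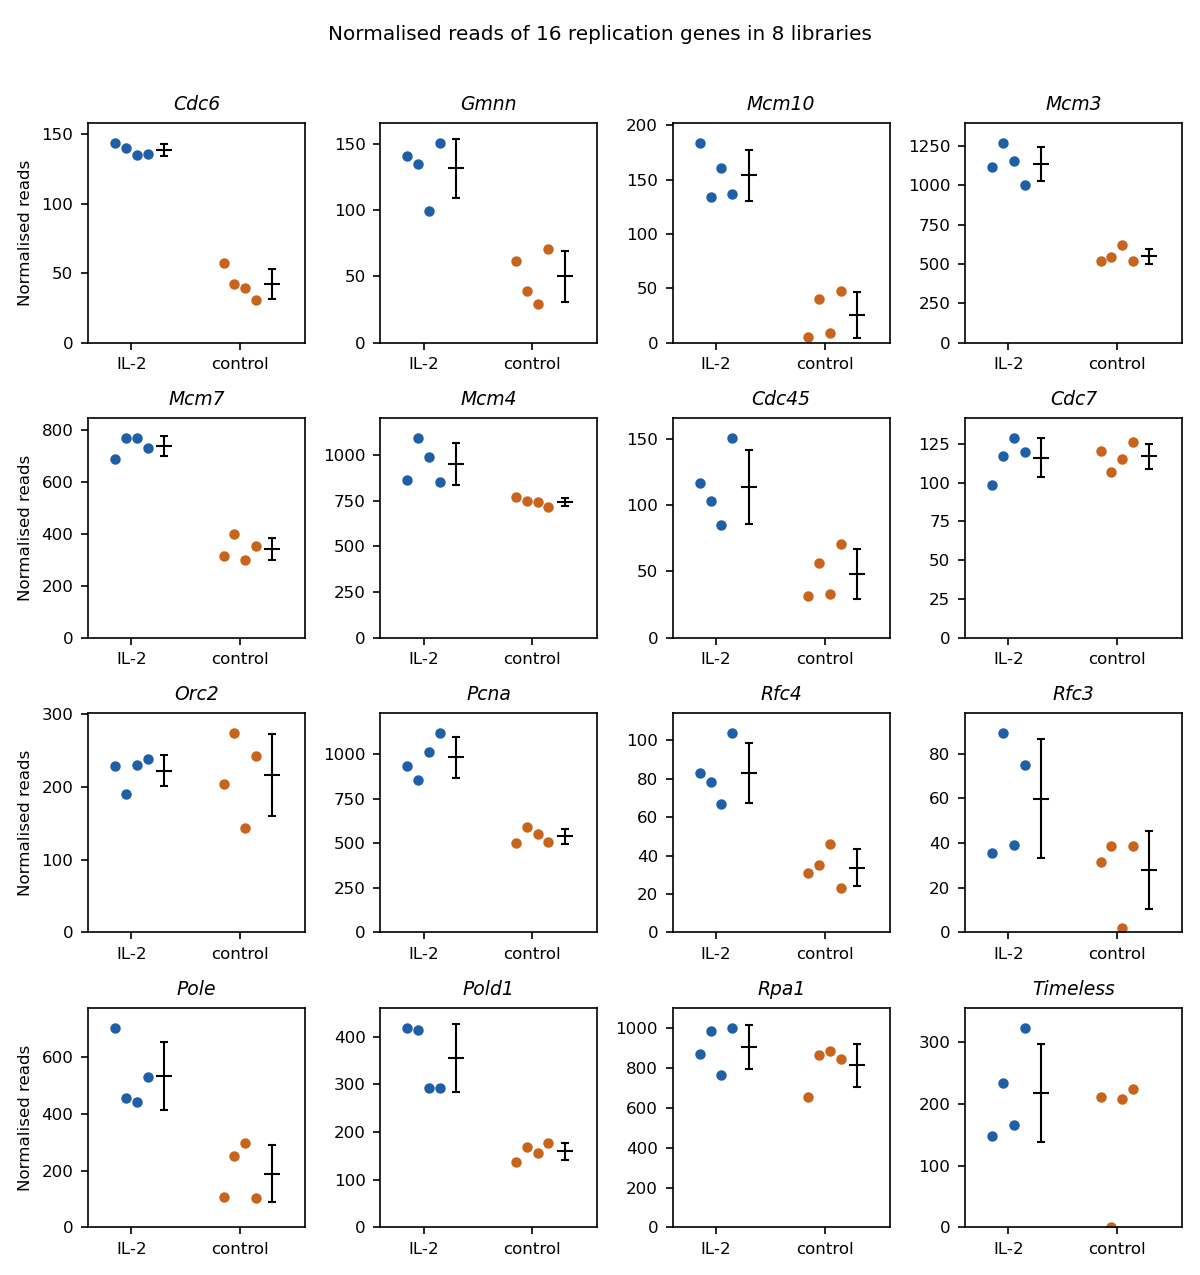
Normalised reads of 16 replication genes, with 1 point per library, blue for IL-2 and orange for control. Bars give mean ± SD of 4 libraries, left out where a library is listed at 0, and each vertical axis starts at 0. Cdc6, Mcm10, Mcm3, Mcm7, Pcna and Rfc4 show separate groups, Cdc7 and Orc2 overlap, and Timeless is listed at 0 in 1 control library.

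Polymerase and primase genes rose in 4 of 9 (44.4%, against 11.0% of all tested genes), with a median fold of 1.62. Those that rose were the catalytic subunits of polymerases alpha, delta and epsilon and the large subunit of primase. Pold1, the catalytic subunit of polymerase delta, which copies mainly the lagging strand, had 419, 414, 293 and 292 reads with IL-2 and 137, 168, 156 and 178 in controls. Libraries 41 and 42 were above 43 and 44, and all 4 were above every control, a 2.22-fold rise (limma adjusted p = 9.01e-04). Pole, the catalytic subunit of polymerase epsilon, which copies mainly the leading strand, had 705, 457, 444 and 529 against 107, 253, 298 and 102. Both groups were spread, with controls 46 and 47 well above 45 and 48, but they did not overlap (2.81-fold, difference 0.62 ± 0.11 SE, limma adjusted p = 0.00209). Pola1, the catalytic subunit of polymerase alpha, had 579, 666, 566 and 694 against 329, 393, 431 and 410.1, 1.6-fold higher (limma adjusted p = 0.00187). Prim2, the large subunit of primase, had 193, 220.0, 200.1 and 212 against 96.2, 81.9, 111 and 121, 2.01-fold higher with tight groups (limma adjusted p = 0.00164).

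The other 5 genes of the role did not pass. Pold2, of polymerase delta, had the largest p of the role, with 158, 97.6, 183 and 104 reads under IL-2 and 102, 89.4, 127 and 154 in controls (1.15-fold, limma adjusted p = 0.673). Pola2, the second subunit of polymerase alpha, lay just outside the threshold (293 ± 66.3 against 198 ± 17.1 reads, mean ± SD, n = 4 each, limma adjusted p = 0.0519) and passed under 5 of 19 alternatives. Prim1, the catalytic primase subunit, had a ratio of 1.62, Pole2 of 1.84 and Pold3 of 1.23 (limma adjusted p = 0.0855, 0.0785 and 0.152). Pole2 was nearly constant among the IL-2 libraries, at 56.9, 59.5, 56.3 and 56.6 reads, and these lay above all controls, at 50.5, 20.1, 22.9 and 30.9.

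Of the lagging strand and single-strand binding genes, Lig1 and Fen1 rose (40.0%, against 11.0% of all tested genes). The 3 genes of replication protein A did not pass. Lig1, the ligase that seals Okazaki fragments, had 599, 759.6, 573 and 561 reads with IL-2 and 257, 267, 246 and 357 in controls, 2.21-fold higher without overlap (difference 0.52 ± 0.07 SE, limma adjusted p = 2.15e-04). Fen1, the nuclease that trims their flaps, had 364, 352, 285 and 344 against 216, 222, 206 and 215. Its controls lay within a narrow band, and the rise was 1.56-fold (limma adjusted p = 0.00486). Replication protein A coats single-stranded DNA, and its large subunit gene Rpa1 stood at 869.9, 985, 765 and 1002 and 653, 863, 886 and 845 reads (1.12-fold, limma adjusted p = 0.408). Rpa2 stood at 165, 215, 157 and 99.5 and 88.9, 136, 88.9 and 108, where library 44 was the lowest IL-2 library, and passed when that library was left out (adjusted p = 0.141 with it and 0.0351 without it, limma). Rpa3 stood at 58, 71.5, 75.6 and 73.5 and 42.4, 54.3, 36.8 and 62.9 (1.42-fold, limma adjusted p = 0.227).

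Fork protection and chromatin assembly genes rose in 4 of 5. Clspn encodes claspin, which links the fork to the checkpoint kinases, and had 652, 639, 497 and 819 reads with IL-2 and 252, 256, 261 and 273 in controls. The controls were nearly identical, and the rise was 2.51-fold (difference 0.59 ± 0.07 SE, limma adjusted p = 1.25e-04). Tipin, a partner of Timeless at the fork, had 198, 183, 161 and 180.0 against 93.7, 67.7, 94.3 and 139, 1.83-fold higher (limma adjusted p = 0.0112). Timeless itself had 147, 233, 166 and 323 reads with IL-2 and 211, 0, 208 and 224 in controls, where library 46 is listed at 0. The other controls lay within the IL-2 range, and Timeless did not pass with that library (limma adjusted p = 0.424) or without it (difference -0.0066, adjusted p = 0.97).

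Chaf1a and Chaf1b encode subunits of chromatin assembly factor 1, which places histones on new DNA behind PCNA. Chaf1a had 173, 314, 187 and 181 reads with IL-2, with library 42 above the others, and 32.7, 82.5, 117 and 50.3 in controls, a 3.03-fold rise (limma adjusted p = 0.00398). Chaf1b had 111, 157, 150.4 and 140.2 against 109.8, 74.6, 33.5 and 40.0. Control library 45 came close to the lowest IL-2 library, and the 2.17-fold rise (limma adjusted p = 0.0182) no longer passed without control library 47 or 48 (adjusted p at most 0.0562).

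All 3 E2F members rose, both activators and the repressor, against 11.0% of all tested genes. E2f1, an activator of S phase genes, had 86.5, 75.3, 78.9 and 79.3 reads with IL-2 and 39, 23.8, 15.7 and 49.1 in controls, 2.51-fold higher (limma adjusted p = 0.0109). E2f2, also an activator, had 423, 458, 459 and 581 against 269.7, 315, 315 and 356, 1.53-fold higher (limma adjusted p = 0.00791). E2f8, an atypical E2F that represses the same targets later in S phase, had 157, 156, 116 and 262 against 88.5, 58.7, 54.7 and 89.4, 2.37-fold higher with library 44 the highest (limma adjusted p = 0.0121). In each of the 3 genes the groups did not overlap.

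Partners of these factors were read from a list of 15 other genes of the E2F and RB families. Of these, 4 rose and 2 fell, against 11.0% and 9.31% of all tested genes, with a median difference of 0.08 on the deposited scale. The 2 that fell encode pocket proteins, which hold E2F targets down in resting cells. Rb1 had 561, 509, 525 and 668 reads with IL-2 and 955, 963, 999 and 1038 in controls (difference -0.45 ± 0.06 SE, limma adjusted p = 1.45e-04). Rbl2, whose product p130 is the pocket protein of quiescent cells, had 1786, 1475, 1401 and 1611 against 2565, 2245, 2579 and 2363 (difference -0.47 ± 0.06 SE, limma adjusted p = 2.89e-04). Every IL-2 library was below every control for both. Tfdp1, the DNA-binding partner of E2F proteins, rose 1.82-fold, from 287 ± 32.1 to 522 ± 55.9 reads (mean ± SD, n = 4 each, limma adjusted p = 5.84e-04). E2f3, E2f7 and Mybl2 were the other genes that rose, E2f7, a repressor like E2f8, by 5.42-fold. The third pocket protein gene, Rbl1, stood at 571 ± 68.8 and 492 ± 62.4 reads (limma adjusted p = 0.272).

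A list of other replication genes, none of them among the 52, held 31 tested genes. Of these, 9 (29.0%) rose and 0 fell, against 11.0% and 9.31% of all tested genes. The list had a median fold of 1.34, against 0.992 over all genes tested. Ticrr encodes treslin, which helps to bring Cdc45 to origins, and had 248, 178, 203 and 178 reads with IL-2 and 36.3, 33, 37.6 and 33.6 in controls, 5.75-fold higher (difference 0.57 ± 0.05 SE, limma adjusted p = 1.80e-05). Dna2, a nuclease that also processes flaps, had 69.4, 57.9, 81.2 and 101 reads with IL-2, while controls 45, 46 and 47 are listed at 0 and 48 held 22.3 (limma adjusted p = 5.50e-04). Uhrf1, which carries DNA methylation over to new strands, rose 2.76-fold. Whether the 52 members and these genes differ was not tested.

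Across libraries the members were even within each group. Their summed reads were 17424, 18323, 16690 and 18137 in IL-2 libraries 41 to 44 and 10379, 10966, 11184 and 10989 in control libraries 45 to 48. That is 0.305% of reads on average with IL-2 and 0.194% in controls, and no IL-2 library stood apart from the other 3. The 18 genes of a mitosis list summed to 10542, 11622, 11600 and 25153 in the IL-2 libraries, so that library 44 held more than any other, and to 5203, 6165, 5073 and 7535 in controls. Library 44 was the highest IL-2 library for 17 of the 18 mitosis genes and for 18 of the 52 replication genes. The ratio of mitosis to replication reads was 1.39 in library 44, 0.605 to 0.695 in the other IL-2 libraries and 0.454 to 0.686 in controls. Without library 44, 29 of the 52 members and 12 of the 18 mitosis genes rose, against 30 and 13 with it. Over all 10822 tested genes, 1093 rose without library 44 and 1191 with it.

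**Figure D4:**
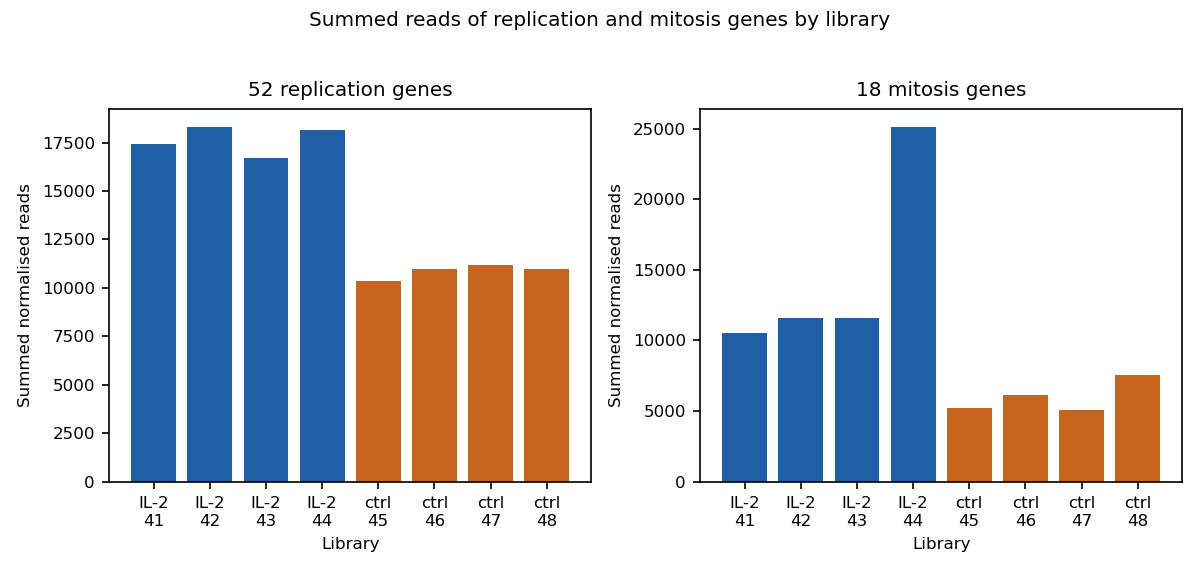
Bars give summed normalised reads per library for the 52 replication genes and for 18 mitosis genes, blue for IL-2 and orange for control. The replication sums are 16690 to 18323 in the 4 IL-2 libraries and 10379 to 11184 in controls, while the mitosis sum of IL-2 library 44, 25153, stands above the other IL-2 libraries.

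Markers of other cell types were also summed. The 7 monocyte, macrophage and dendritic cell markers summed to 713 to 994 reads with IL-2 and 1559 to 1854 in controls, nearly all from Ctss. At few reads, Lyz2 was listed at 0 with IL-2 and at 5.55 to 14.5 in controls. Adgre1 stood at 0 to 2.32 with IL-2 and 2.72 to 7.8 in controls. For Csf1r, Itgax, Cd68 and Spi1 the groups overlapped. The 7 B cell markers summed to 39.0 to 116 and 135 to 206, of which Cd22 had 24.1 ± 5.53 reads with IL-2 and 114 ± 20.1 in controls, and Cd79b 60.1 ± 31.1 and 42.0 ± 14.1 (mean ± SD, n = 4 each). Natural killer cell markers summed to at most 7.95 reads with IL-2 and 18.3 to 90.4 in controls, nearly all from Klrb1c. The CD8 T cell list summed to 56.2 to 90.2 and 53.4 to 103 reads, and the platelet list to at most 19.0 and 51.0. Of the markers of dividing cells of other lineages, Mzb1, Fcrla, Klf1 and Elane were at 0 in every library. The neutrophil list summed to at most 1.04 reads. The erythroid list summed to 610 to 948 reads with IL-2 and 320 to 482 in controls, nearly all from Tfrc, which activated T cells also express. The germinal centre B and plasma cell list summed to 499 to 611 and 275 to 378 reads, nearly all from Xbp1, which is not confined to those cells. The part of these cells in the replication result was not tested.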

How the data were processed

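Total RNA from sorted splenic Tregs was made into libraries with a low-input stranded kit, per the labels. The authors deposited 1 table of variance-stabilised log2 values for 21524 genes in 8 libraries. The submitters' processing notes name Salmon, DESeq2 and GRCm39, and neither annotation nor filters are stated in the sources used here. Salmon shares reads among similar transcripts by estimation, so genes with close copies are uncertain.

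The lowest value, 8.69, stands for 0 reads. Normalised reads were recovered by inverting the variance-stabilising formula. Of the 5 commonest recovered values in each library, 40 of 40 were whole multiples of 1 read within 0.001, but most genes did not give whole reads, so a count model was not used. Genes with a mean of at least 10 normalised reads over the 8 libraries (10822) were fitted on the deposited values with limma 3.58.1 in R 4.3.3 (trend, no covariates, two-sided, Benjamini-Hochberg). The step was tested on data with known answers, in which 200 of 10822 genes were changed. Of 50 genes changed by 0.25, 40% were called, and of 50 changed by 0.5, 92% were called. Of the 174 calls, 9 were false. Small changes were thus often missed, and a gene that did not pass may still have changed. Named genes were, per role, up to 4 with the smallest adjusted p and the one with the largest, and from other lists up to 3 and every gene that fell. Members named beyond that, and E2f3, E2f7, Mybl2, Rbl1 and the marker genes, were chosen after their values were seen. Some marker genes are not reported here. The members and lists were chosen with earlier results of these data known. Promoters are from RefSeq on GRCm38.p6, another build than that of the values, matched by symbol. Alternatives covered filters, scale, normalization, the variance model and leaving out each library. Figures were drawn with matplotlib 3.10.9.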

Additional observations from a re-analysis of the deposited data

Results flagged for a closer look

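In 104 groups of 4 libraries (52 genes in both groups) 6 held 1 library far from the other 3, where chance flags about 1 group in 20. In control library 46, Timeless was listed at 0 reads against 208 to 224 in the other controls. In control library 47, Rfc3 had 2.1 reads against 31.7 to 38.8, and Gins4 had 193 reads, above 148 to 152. Dbf4 had 164 reads in control library 46, below 194 to 200 in the others. Rpa1 had 653 reads in control library 45, below 845 to 886. Chaf1a had 314 reads in IL-2 library 42, above 173 to 187. No explanation of these values was tested.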

How the results depend on the processing

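Of 19 alternatives, 18 gave between 23 and 31 members higher, against 30 in the reported fit (23 of the 36 tested with a mean of at least 100 reads), and all 19 gave 0 lower. The exception kept only genes at least 1 unit above the lowest value in at least 4 libraries: it tested 22 members, and 16 of them rose. The count of all genes called was within 1.5 times of 2198 throughout. Leaving out 1 library at a time gave 25 to 29 members higher. Of the 30 members called, 25 passed under every alternative that tested them, and Orc6, Mcm4, Gins1, Rfc5 and Chaf1b did not. Pola2, Pole2 and Rpa2, not called, passed under at least 1 alternative. With the presence of Ddx3y as a covariate, an alternative chosen after seeing the data, 29 rose. The sign turned in 5 genes that did not pass. Leaving out 1 library gave a difference of -0.04 to 0.06 for Orc2, -0.04 to 0.06 for Orc3, -0.07 to 0.03 for Gins3 and -0.0066 to 0.34 for Timeless. For Cdc7 it gave -0.02 to 0.02. With Ddx3y as a covariate Cdc7 was at 0.0026 and Gins3 at 0.00011. The cause was not tested. No paired analysis was possible because the labels link no IL-2 library to a control library. A mean under 100 reads, where a doubling spans at most 0.28 units, was found in 16 members.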

Other observations

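Ssrp1, which encodes a subunit of the histone chaperone FACT, is listed at 0 in all 8 libraries, while its partner gene Supt16 had 2545 ± 131 reads with IL-2 and 2427 ± 91.1 in controls (mean ± SD, n = 4 each). A 0 in this table was therefore given only as listed, as for Timeless in control library 46 and Dna2 in controls 45, 46 and 47.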
